A study of Homo sapiens with 16 samples.

Results

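The NF-kB subunits and feedback genes are a set of 10 genes, chosen by name, of the 58735 genes in the deposited expression table. They are the subunit genes NFKB1, NFKB2 and RELB, the genes of the nuclear and cytoplasmic IkB proteins NFKBIA, NFKBIZ and BCL3, and the target genes TNFAIP3, BIRC3, TRAF1 and SOD2. All 10 had a mean of at least 1 FPKM (fragments scaled to exon length and sequencing depth) and were among the 13088 genes tested. The RNA came from U2OS, a human osteosarcoma cell line. Cells carried an siRNA against SETD2 (siSETD2), the methyltransferase that trimethylates lysine 36 of histone H3, or a non-targeting siRNA (siNT), with drugs given 48 h after transfection. Under each siRNA they received 2 mM hydroxyurea (HU) with 2 µM VE-822, 2 mM HU, 2 µM VE-822, or neither drug, for 4 h. HU starves replication forks of deoxynucleotides, and VE-822 inhibits the replication checkpoint kinase ATR. Each of the 8 groups held 2 libraries, R1 and R2, and the labels do not say that they came from separate cultures, so p-values measure the spread between these libraries only, which may be technical.

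NF-kB is a family of dimeric transcription factors held in the cytoplasm by IkB proteins. Signals from cytokine receptors, and in the nucleus from DNA damage through the kinase ATM, activate the IKK kinases, which mark IkB for destruction and free the dimers. The dimers bind kB sites and switch on, among other genes, their own inhibitors and subunits, so the transcripts described here are used as a readout of the pathway and also act back on it. A separate non-canonical branch processes the NFKB2 product p100 to p52, which pairs with RELB.

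The kB sites near the gene starts are shown because they are the sequence feature that NF-kB dimers bind. In RefSeq windows on GRCh38.p14 from 250 bases before to 50 bases after each start, 9 of the 10 genes had at least 1 window and 18 windows in all. RELB was not in that table. The NF-kB consensus of 10 letters, searched on both strands with overlapping matches kept, occurred in 9 of these 18 windows and in 7 of the 9 genes. Over the whole table it occurred in 11.3% of 35116 windows and in 13.3% of 27305 genes. The 10 genes were chosen by name as NF-kB genes, so these shares are a description and were not tested. The windows of TRAF1 and SOD2 held no match to these letters. In the lines that follow, capitals mark the match, and each line reads 5′ to 3′ on the gene's strand.
NFKB1, 49 bases before the start, chr4:102501300-102501329, plus strand: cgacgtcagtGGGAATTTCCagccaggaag
NFKB2, window 2, 107 bases before the start, chr10:102394461-102394491, plus strand: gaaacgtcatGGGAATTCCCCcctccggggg
NFKB2, window 2, 78 bases before the start, chr10:102394490-102394519, plus strand: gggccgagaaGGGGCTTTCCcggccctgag
NFKB2, window 3, 176 bases before the start, chr10:102395519-102395548, plus strand: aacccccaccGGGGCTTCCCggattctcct
NFKB2, window 3, 21 bases before the start, chr10:102395674-102395703, plus strand: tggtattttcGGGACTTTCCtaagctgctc
NFKBIA, 81 bases before the start, chr14:35404811-35404840, minus strand: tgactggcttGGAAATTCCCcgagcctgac
NFKBIZ, window 1, 223 bases before the start, chr3:101827757-101827786, plus strand: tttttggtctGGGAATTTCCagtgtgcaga
NFKBIZ, window 2, 239 bases before the start, chr3:101849265-101849294, plus strand: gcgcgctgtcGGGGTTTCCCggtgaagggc
BCL3, 2 bases after the start, chr19:44748700-44748729, plus strand: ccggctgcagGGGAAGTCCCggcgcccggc
TNFAIP3, from 67 bases before the start, chr6:137867182-137867223, plus strand: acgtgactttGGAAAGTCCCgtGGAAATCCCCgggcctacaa
BIRC3, 199 bases before the start, chr11:102317275-102317304, plus strand: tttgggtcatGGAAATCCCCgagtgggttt
BIRC3, 135 bases before the start, chr11:102317339-102317368, plus strand: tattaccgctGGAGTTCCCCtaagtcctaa
A match describes letters in a window and does not show that a dimer was bound there in these cells. NFKB1 and the first NFKBIZ window carried the same 10 capitals, and the later TNFAIP3 match had the same capitals as the first BIRC3 match.

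In GENCODE release 29 on GRCh38, the subunit genes lie at chr4:102501329-102617302 (NFKB1), chr10:102394110-102402529 (NFKB2) and chr19:45001430-45038198 (RELB), all on the plus strand. The IkB genes lie at chr14:35401511-35404749 on the minus strand (NFKBIA), chr3:101827991-101861022 (NFKBIZ) and chr19:44747705-44760044 (BCL3), the last pair on the plus strand. The target genes lie at chr6:137867188-137883312 (TNFAIP3) and chr11:102317450-102339403 (BIRC3) on the plus strand, and at chr9:120902393-120929173 (TRAF1) and chr6:159669057-159745186 (SOD2) on the minus strand. SOD2 overlaps WTAP, which lies on the opposite strand and reached 13.4 FPKM, and without a stated use of strand the fragments of both cannot be fully told apart. A second Ensembl gene also named SOD2 reached 0.0448 FPKM at most and was left out. TNFAIP3 overlaps the antisense gene AL357060.1, which reached 0.704 FPKM.

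SETD2 itself was lower in every siSETD2 library, at 2.01 to 4.62 FPKM, than in every siNT library, at 7.34 to 9.25 FPKM (log2 fold change -1.09, SE 0.125, adjusted p = 0.0169). Outside VE-822 alone, SETD2 in siSETD2 cells had 2.01 to 2.64 FPKM in R1 and 3.67 to 4.17 FPKM in R2. With VE-822 alone it had 4.62 FPKM in R1 and 3.95 FPKM in R2. The part of this split in the differences between siRNAs was not tested. The libraries held 22310806 to 31101932 fragments each. The 4 libraries of VE-822 alone stood apart from the other 12, and 24.7% of all tested genes were called between VE-822 alone and untreated cells, so a property of those libraries and VE-822 given alone cannot be told apart. Among the 12 others, the R2 minus R1 difference correlated between groups, and a second fit with a term for the replicate number in these 6 groups is called the block here. Of the mesenchymal markers of the line, VIM (77.3 to 167.1 FPKM) and SPARC (89.2 to 249.8 FPKM) were present and COL1A2 (0 to 0.0414 FPKM) was absent. COL1A1 had 7.45 to 39.0 FPKM and RUNX2 0.833 to 6.91 FPKM. Of 6 blood cell markers 5 stayed under 1 FPKM in all libraries, and their sum was 3.06 to 3.4 FPKM in siSETD2 and 2.65 to 3.02 FPKM in siNT with VE-822 alone, against 0.971 to 2.24 FPKM in the others. The blood cell marker that passed 1 FPKM was CD3D (0.716 to 2.87 FPKM). Of 3 epithelial markers 2 stayed under 1 FPKM, with sums between 1.62 and 2.27 FPKM in every library. The other was EPCAM (1.52 to 2.18 FPKM). The part of these marker levels in the results was not tested.

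Every gene of the set was detected in every library, and NFKB2 was by far the most abundant. Its level per exon length averaged 93.8 ± 17.1 FPKM (SD over 16 libraries) and it was above every other member in all 16. NFKBIA, the IkB-alpha gene whose resynthesis ends a canonical response, averaged 26.5 ± 7.61 FPKM, and BIRC3, which encodes the ubiquitin ligase cIAP2, averaged 22.9 ± 15.5 FPKM. RELB averaged 17.1 ± 3.5, SOD2 13.4 ± 7.63, NFKB1 12.9 ± 2.76 and TNFAIP3 12 ± 4.45 FPKM. The lowest levels were those of NFKBIZ at 9.03 ± 1.86, TRAF1 at 7.38 ± 2.55 and BCL3 at 6.81 ± 4.32 FPKM. Below NFKB2 the order was not fixed. NFKBIA exceeded BIRC3 in 12 of 16 libraries, BIRC3 exceeded RELB in 10, and SOD2 exceeded NFKB1 in only 4 although its mean was higher. The widest ranges were those of BCL3 (7.33-fold between its lowest and highest library), BIRC3 (7.14-fold) and SOD2 (5.45-fold), and the narrowest was that of NFKB2 (1.78-fold). RELA, the canonical partner of NFKB1 and not a member of the set, stayed between 15.2 and 20 FPKM.

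**Figure D1:**
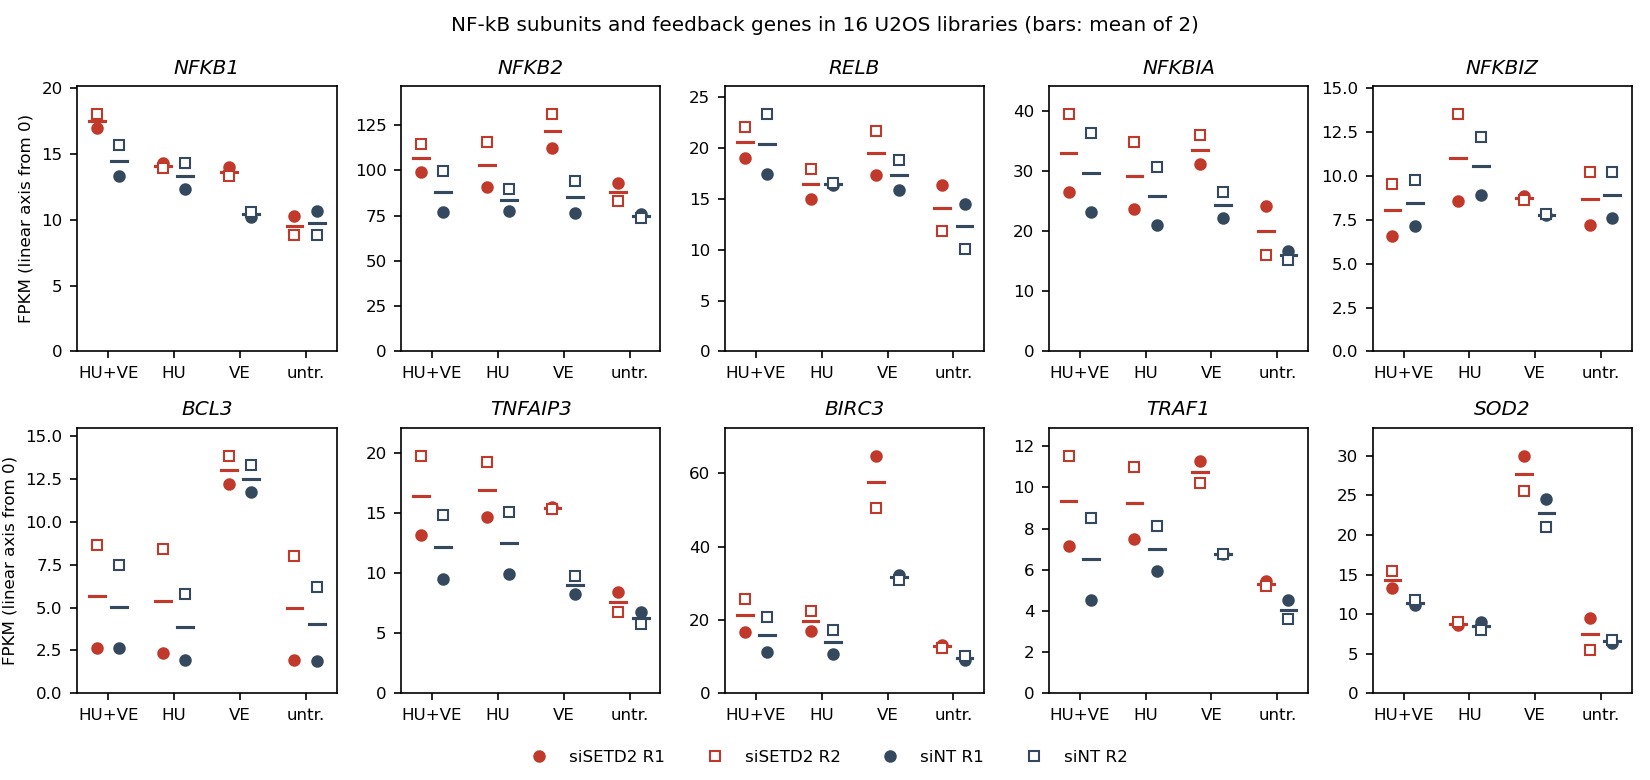
FPKM of each of the 10 genes in every library (linear axis from 0, 1 panel per gene), by treatment along the x axis, with siSETD2 left of siNT and R1 (filled) and R2 (open) drawn with separate markers and a bar at the mean of both. BIRC3, SOD2 and BCL3 are highest in VE-822 alone, and BCL3 separates R1 from R2 elsewhere.

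Against untreated cells, 7 of the 10 genes rose and 0 fell in VE-822 alone, averaged over both siRNAs. Among all genes tested 11.4% were called higher and 24.7% were called in either direction. The median log2 fold change of the 10 was 0.68, beside -0.03 over all genes. Fold changes are on the log2(FPKM + 1) scale, and the same 4 untreated libraries serve as the comparison for all 3 drug treatments. In bulk RNA, a change in every cell and a change in the share of cells that express a gene cannot be told apart.

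Of the target genes, BIRC3 and SOD2 moved most. BIRC3 stood at 64.6 and 50.6 FPKM in siSETD2 cells and 32.2 and 31.0 FPKM in siNT cells with VE-822 alone. Untreated cells had 13.1 and 12.5 FPKM with siSETD2 and 9.05 and 10.2 FPKM with siNT. All 4 VE-822-alone libraries exceeded every other library, and the fold change was 1.85 (SE 0.21, adjusted p = 0.000229). SOD2, the mitochondrial superoxide dismutase, had 29.9 and 25.5 FPKM in siSETD2 and 24.5 and 21.0 FPKM in siNT cells given VE-822 alone, against 9.52 and 5.48 FPKM (siSETD2) and 6.37 and 6.74 FPKM (siNT) in untreated cells. These libraries too were above all 12 others (log2 fold change 1.72, SE 0.137, adjusted p = 2.33e-05). Without any 1 of the 16 libraries both genes still passed, with adjusted p-values of 0.000162 to 0.002 for BIRC3 and 1.99e-05 to 0.000292 for SOD2.

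TRAF1, an adaptor of TNF receptors that binds cIAP proteins, had 11.3 and 10.2 FPKM in siSETD2 and 6.78 and 6.76 FPKM in siNT cells with VE-822 alone, against 5.46 and 5.19 FPKM (siSETD2) and 4.51 and 3.61 FPKM (siNT) in untreated cells. The groups did not overlap and TRAF1 rose by 0.76 (SE 0.193, adjusted p = 0.0171). TNFAIP3 encodes the ubiquitin-editing enzyme A20, which shuts off signalling to IKK. It had 15.5 and 15.3 FPKM in siSETD2 and 8.27 and 9.73 FPKM in siNT cells with VE-822 alone, against 8.4 and 6.73 FPKM (siSETD2) and 6.74 and 5.81 FPKM (siNT) untreated. It rose by 0.70 (SE 0.179, adjusted p = 0.0175), although the lowest treated library lay below the highest untreated one. TRAF1 passed in 13 of the 16 fits that leave out 1 library, with adjusted p-values up to 0.0595, and lost its call without VE-822 siSETD2 R1, VE-822 siNT R2 or untreated siNT R2. TNFAIP3 passed in 12, with adjusted p-values up to 0.0653, and lost its call without these 3 or VE-822 siSETD2 R2.

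Among the IkB genes, NFKBIA had 31.2 and 36.1 FPKM in siSETD2 and 22.3 and 26.5 FPKM in siNT cells with VE-822 alone, against 24.3 and 16 FPKM (siSETD2) and 16.8 and 15.3 FPKM (siNT) untreated. Its rise of 0.65 (SE 0.207, adjusted p = 0.0411) passed in 9 of the 16 fits that leave out 1 library. It lost its call, with adjusted p-values up to 0.126, without any 1 VE-822-alone library or any 1 untreated library other than siSETD2 R1. BCL3, a nuclear IkB protein that works with p50 and p52 homodimers, had 12.2 and 13.8 FPKM in siSETD2 and 11.7 and 13.3 FPKM in siNT cells with VE-822 alone. Untreated cells had 1.92 and 7.98 FPKM with siSETD2 and 1.89 and 6.21 FPKM with siNT. All 4 VE-822-alone values exceeded the other 12, but the untreated values split by replicate number. The fold change of 1.51 (SE 0.516) had an adjusted p of 0.0544, or 3.61e-07 with the block. It was 2.24 against untreated R1 libraries only and 0.77 against untreated R2 libraries only. The block has no term for the VE-822-alone libraries, so its p-value does not measure this spread in size. NFKBIZ, a nuclear IkB protein that acts as a coactivator at secondary response genes, was at 7.78 to 8.83 FPKM in VE-822 alone and 7.21 to 10.2 FPKM untreated (log2 fold change -0.07, adjusted p = 0.799).

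Of the subunit genes, RELB and NFKB1 rose in VE-822 alone. RELB stood at 17.3 and 21.7 FPKM in siSETD2 and 15.9 and 18.8 FPKM in siNT cells with VE-822 alone, against 16.4 and 11.8 FPKM (siSETD2) and 14.5 and 10.1 FPKM (siNT) untreated. It rose by 0.47 (SE 0.152, adjusted p = 0.0445). NFKB1 had 14 and 13.3 FPKM in siSETD2 and 10.2 and 10.6 FPKM in siNT cells with VE-822 alone, against 10.3 and 8.82 FPKM (siSETD2) and 10.7 and 8.85 FPKM (siNT) untreated. The siNT values overlapped, and over both siRNAs it rose by 0.28 (SE 0.093, adjusted p = 0.0482). Both genes were close to the threshold, and each passed in 4 of the 16 fits that leave out 1 library (untreated R1 of either siRNA, or either siNT library with both drugs). Their adjusted p-values reached 0.152 for RELB and 0.146 for NFKB1. NFKB2 had 112 and 130.8 FPKM in siSETD2 and 76.2 and 94 FPKM in siNT cells with VE-822 alone, against 92.8 and 83.1 FPKM (siSETD2) and 76 and 73.6 FPKM (siNT) untreated, a change of 0.32 (SE 0.128, adjusted p = 0.0929, or 0.0365 with the block). The block called 9 of the 10 genes higher, where 20.7% of all genes were called higher and 44.9% in either direction. BIRC3, SOD2 and BCL3 were the 3 genes whose VE-822-alone libraries lay above the other 12, a pattern held by 8.12% of all genes. With TRAF1 they were the 4 that did not overlap with untreated cells, as did 14.6% of all genes. With untreated R1 libraries only, the fold changes were 1.87 for BIRC3, 1.56 for SOD2, 0.58 for TNFAIP3, 0.24 for RELB and 0.17 for NFKB1. With untreated R2 libraries only, they were 1.83, 1.88, 0.82, 0.7 and 0.39 in the same order.

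In HU alone, 0 of the 10 genes passed the test against untreated cells with limma, where 0.107% of all genes did. An unadjusted p under 0.05 was found for 5 of the 10, with 7.58% of all genes, and voom, limma's method for counts, on the recovered fragments gave 0 calls among the 10 and 0.0917% over all genes. All 10 fold changes were above 0, with a median of 0.39 beside 0.011 over all genes. TNFAIP3 differed most. It had 14.7 and 19.2 FPKM in siSETD2 and 9.95 and 15.1 FPKM in siNT cells in HU, against 8.4 and 6.73 FPKM (siSETD2) and 6.74 and 5.81 FPKM (siNT) in untreated cells. The groups did not overlap, and the fold change of 0.97 (SE 0.179) had an adjusted p of 0.117, or 0.012 with the block. NFKB1, which encodes p105 and p50, had 14.3 and 13.9 FPKM in siSETD2 and 12.3 and 14.3 FPKM in siNT cells in HU. Untreated cells had 10.3 and 8.82 FPKM with siSETD2 and 10.7 and 8.85 FPKM with siNT. NFKB1 did not overlap either, at 0.46 (SE 0.093, adjusted p = 0.127, or 0.0298 with the block). These were the 2 genes that the block called, where 0.848% of all genes were called higher and 1.6% in either direction. TRAF1 was the other gene whose 4 HU libraries (5.95 to 11 FPKM) lay above the 4 untreated ones (3.61 to 5.46 FPKM), as 2.11% of all genes did. Its fold change was 0.67 (adjusted p = 0.36, or 0.0533 with the block).

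The HU difference was larger between R2 than between R1 libraries for 9 of the 10 genes, with BCL3 the exception, and this was not tested. The share of all genes with a larger R2 difference is not given, so the count is not a trait of the set. TNFAIP3 differed by 0.62 between R1 libraries and by 1.32 between R2 libraries, NFKB1 by 0.31 and 0.62, and TRAF1 by 0.36 and 0.97 in the same order. For NFKBIA the values were 0.14 in R1 and 1.01 in R2, where the R2 libraries in HU held 34.9 FPKM (siSETD2) and 30.7 FPKM (siNT), against 16 FPKM (siSETD2) and 15.3 FPKM (siNT) untreated. BIRC3 had 17.0 and 22.6 FPKM in siSETD2 and 10.7 and 17.3 FPKM in siNT cells in HU, a difference of 0.29 in R1 and 0.76 in R2. NFKBIZ differed by 0.21 in R1 and 0.30 in R2, and NFKB2 by -0.01 in R1 and 0.38 in R2. BCL3 differed by 0.12 in R1 and -0.01 in R2.

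With HU and VE-822 together, NFKB1 was the only 1 of the 10 genes called against untreated cells, where 0.0229% of all genes were called higher and 0.0382% in either direction. It had 17.0 and 18.0 FPKM in siSETD2 and 13.3 and 15.7 FPKM in siNT cells with both drugs, against 10.3 and 8.82 FPKM (siSETD2) and 10.7 and 8.85 FPKM (siNT) untreated. All 4 values exceeded the untreated ones and NFKB1 rose by 0.67 (SE 0.093, adjusted p = 0.0483). The call was lost when the VE-822-alone libraries were left out of the fit. It was also lost in 13 of the 16 fits that leave out 1 library, with adjusted p-values up to 0.184, and held without untreated siSETD2 R1, siSETD2 R2 or siNT R1. SOD2 had 13.3 and 15.4 FPKM in siSETD2 and 11.1 and 11.8 FPKM in siNT cells with both drugs, all above the untreated 5.48 to 9.52 FPKM, at 0.80 (SE 0.137, adjusted p = 0.0515). TNFAIP3 had 13.2 and 19.7 FPKM in siSETD2 and 9.53 and 14.8 FPKM in siNT cells with both drugs, against 5.81 to 8.4 FPKM untreated, at 0.92 (SE 0.179, adjusted p = 0.0721). RELB had 19.0 and 22.1 FPKM in siSETD2 and 17.4 and 23.3 FPKM in siNT cells with both drugs, against 10.1 to 16.4 FPKM untreated, at 0.61 (SE 0.152, adjusted p = 0.115). Neither gene overlapped with untreated cells. That made 4 such genes, and 4% of all genes were separated in this way. The median over the 10 was 0.63, beside 0.024 over all genes. The block called 7 of the 10, NFKB1, TNFAIP3, SOD2, BIRC3, NFKBIA, RELB and TRAF1, with adjusted p-values between 0.00438 and 0.0366, where 4.07% of all genes were called higher and 7.3% in either direction. Each of the 7 differed less between R1 than between R2 libraries, and this was neither tested nor set beside all genes. The values were 0.17 in R1 and 1.03 in R2 for TRAF1, and 0.23 and 0.99 for RELB. For NFKBIA they were 0.28 and 1.22, for BIRC3 0.31 and 0.98, and for NFKB1 0.48 and 0.86.

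HU with VE-822 was then compared with HU alone, which sets the ATR inhibitor against its absence under replication stress. By limma 0 of the 10 genes passed, beside 0.00764% of all genes, 1 had an unadjusted p under 0.05, a share close to the 8.34% of all genes, and voom gave 0 calls. That 1 gene was SOD2, with 13.3 and 15.4 FPKM in siSETD2 and 11.1 and 11.8 FPKM in siNT cells with both drugs, against 8.57 and 8.96 FPKM (siSETD2) and 9.01 and 7.94 FPKM (siNT) in HU. The values did not overlap, as in 3.84% of all genes, and the difference was 0.52 (SE 0.137, adjusted p = 0.318). NFKBIZ stood at 6.58 to 9.75 FPKM with both drugs and 8.55 to 13.5 FPKM in HU, a change of -0.34 with an adjusted p of 0.681, or 0.0253 with the block, which called 0.611% of all genes lower and 1.31% in either direction. BIRC3, at 0.12, TNFAIP3, at -0.05, and TRAF1, at -0.07, differed by less than their standard errors of 0.21, 0.179 and 0.193.

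The VE-822 difference in HU was then set against the VE-822 difference without HU. This comparison was chosen after the data were seen. The value was below 0 for all 10 genes, with a median of -0.61 beside 0.048 over all genes, and 2 passed the test of that difference, where 4.88% of all genes were called lower and 9.91% in either direction. For BIRC3 the difference was 0.12 in HU and 1.85 without it, and the test gave -1.73 (SE 0.296, adjusted p = 0.0072). For SOD2 the differences were 0.52 in HU and 1.72 without it, and the test gave -1.20 (SE 0.194, adjusted p = 0.0055). TRAF1 (-0.83, adjusted p = 0.0769), TNFAIP3 (-0.75, adjusted p = 0.0814) and BCL3 (-1.31, adjusted p = 0.259) did not pass. The block called 6 of the 10 lower, where 15.2% of all genes were called lower and 33.1% in either direction. The libraries with VE-822 alone enter this comparison on 1 side only, so the limit given for them above applies here as well. Using R2 libraries alone for the other 3 treatments gave -1.61 for BIRC3 and -1.26 for SOD2, and using R1 libraries alone gave -1.84 and -1.14, each past the threshold.

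**Figure D2:**
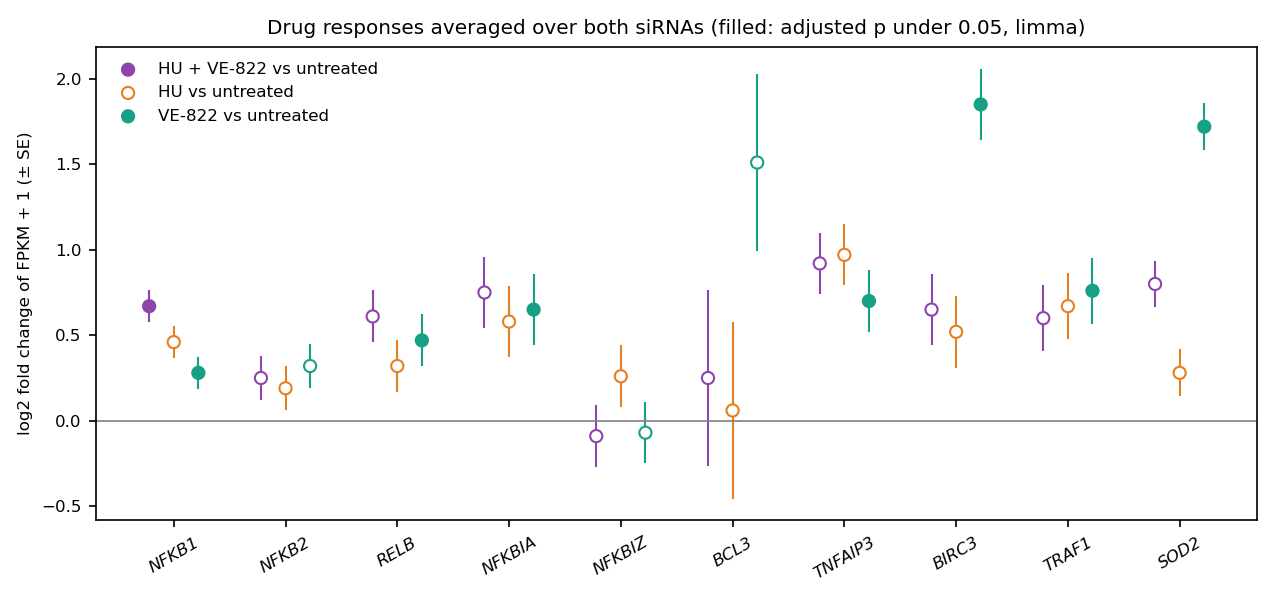
Log2 fold change on the log2(FPKM + 1) scale of each gene against untreated cells, averaged over both siRNAs, for HU with VE-822, HU and VE-822, with bars of 1 standard error from limma. Filled symbols have an adjusted p under 0.05. BIRC3 (1.85), SOD2 (1.72) and BCL3 (1.51, open symbol with a wide bar) are the highest in VE-822 alone, while TNFAIP3 is near 0.92, 0.97 and 0.70 in the 3 treatments.

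Between siRNAs, all 10 genes had a higher average in siSETD2 than in siNT cells over the 4 treatments, but 0 passed the test with limma, where 0.13% of all genes did. The unadjusted p of 5 of the 10 was under 0.05, as it was for 10.0% of all genes, and voom also called 0, with 0.138% over all genes. The median was 0.23, beside -0.008 over all genes. The block called 4 of the 10, BIRC3 (adjusted p = 0.0163), TNFAIP3 (0.043), NFKB2 (0.0449) and TRAF1 (0.0462), where 1.66% of all genes were called higher and 3.88% in either direction. A block over all 8 groups called 0. The largest difference was that of BIRC3, which averaged 27.9 FPKM in siSETD2 and 17.8 FPKM in siNT libraries (log2 fold change 0.53, SE 0.148, adjusted p = 0.199). TNFAIP3 averaged 14.1 FPKM in siSETD2 and 9.99 FPKM in siNT libraries (0.45, SE 0.126, adjusted p = 0.21), and TRAF1 8.66 and 6.1 FPKM (0.44, SE 0.136, adjusted p = 0.267). NFKB2 averaged 104.8 FPKM in siSETD2 and 82.8 FPKM in siNT libraries (0.33, SE 0.0907, adjusted p = 0.195). These averages include VE-822 alone. Without those libraries the differences were 0.43 for BIRC3, 0.36 for TNFAIP3, 0.38 for TRAF1 and 0.27 for NFKB2. The adjusted p-values of that limma fit were 0.802 to 0.855 for these genes.

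Paired by treatment and replicate number, the direction was uniform for 5 genes. NFKB2, NFKBIA, TNFAIP3, BIRC3 and TRAF1 were higher in siSETD2 in 8 of 8 pairs, as were 3.95% of all genes. The BIRC3 pairs ranged from 0.27 in untreated R2 to 0.98 in VE-822 R1, and the TNFAIP3 pairs from 0.18 in untreated R2 to 0.83 in VE-822 R1. TRAF1 pairs lay between 0.23 and 0.66, NFKB2 pairs between 0.17 and 0.55, and NFKBIA pairs between 0.06 and 0.51. For each of these but NFKBIA the highest pair was that of VE-822 alone in R1. BCL3 was higher in 7 of 8 pairs, RELB and SOD2 in 6, NFKB1 in 5 and NFKBIZ in 4. Averaged within R1 and within R2, BIRC3 differed by 0.66 and 0.41, TNFAIP3 by 0.52 and 0.38, TRAF1 by 0.43 and 0.44 and NFKB2 by 0.36 and 0.30 in that order.

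Within a single treatment 0 of the 10 genes passed in HU with VE-822, HU, VE-822 or untreated cells, and limma called 0% of all genes in each. The unadjusted p was under 0.05 for 4 members in VE-822, where it was for 2.93% of all genes. It was under 0.05 for 0 members in HU with VE-822, HU and untreated cells, where the shares of all genes were 2.18%, 2.57% and 4.42% in that order. Voom gave 0 calls, with 5 members at that level in VE-822 (2.77% of all genes) and 0 in each of the others. The member medians were 0.27 in HU with VE-822, 0.23 in HU, 0.40 in VE-822 and 0.21 in untreated cells. Whether the siRNAs differed in their drug response was tested directly. The HU response and the VE-822 response, each in siSETD2 minus siNT, gave 0 calls among the 10 genes and 0 at an unadjusted p under 0.05, limma called 0% of all genes, and voom gave 0 calls too. The member differences ran from -0.19 to 0.19 for HU and from -0.11 to 0.49 for VE-822.

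**Figure D3:**
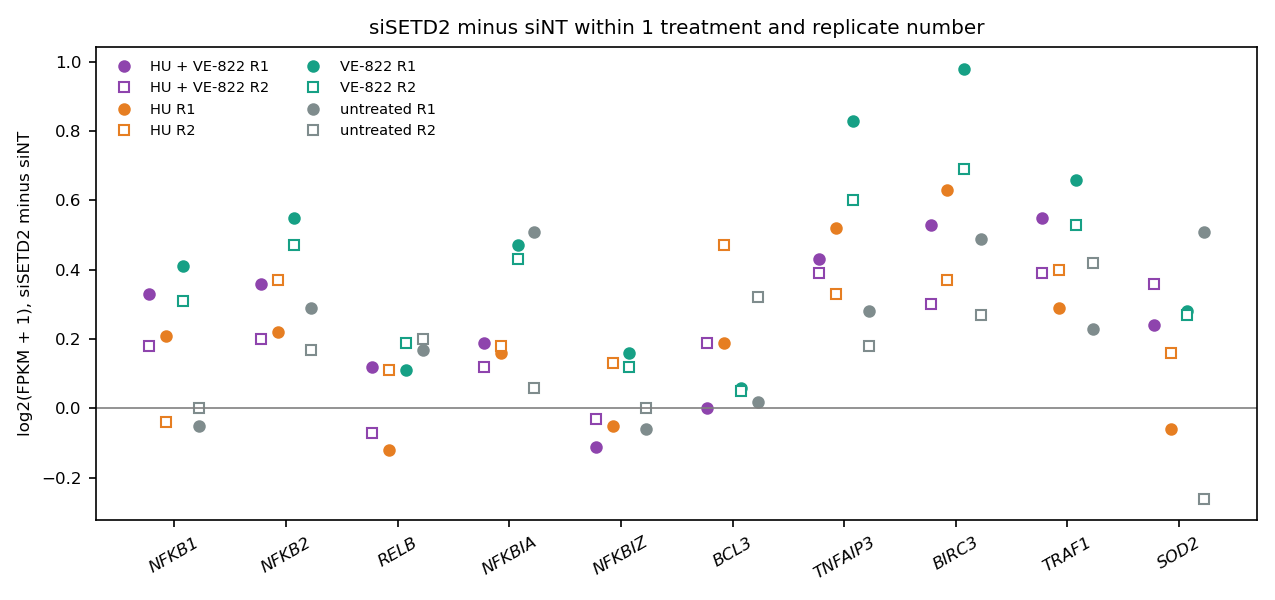
Difference in log2(FPKM + 1), siSETD2 minus siNT, for each gene in the 8 library pairs that share a treatment and a replicate number, with a line at 0. All 8 points lie above 0 for NFKB2, NFKBIA, TNFAIP3, BIRC3 and TRAF1, and NFKBIZ has 4 above.

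BCL3 and NFKBIZ, both nuclear IkB genes, separated the replicate numbers outside VE-822 alone. In BCL3 the R1 libraries of the 6 other groups held 1.89 to 2.65 FPKM and the R2 libraries 5.8 to 8.67 FPKM. The difference R2 minus R1 averaged 1.37 on the log2 scale, from 1.20 to 1.62 over the 6 groups, and 0.535% of all genes had a larger absolute mean. In VE-822 alone it was 0.16 with siSETD2 and 0.18 with siNT. NFKBIZ had 6.58 to 8.92 FPKM in R1 and 9.53 to 13.5 FPKM in R2, a mean difference of 0.45, against -0.03 (siSETD2) and 0.0 (siNT) in VE-822 alone, and 12.7% of all genes had a larger absolute mean. In these 2 genes all 6 R2 libraries lay above all 6 R1 libraries, as in 7.88% of all genes. BIRC3 differed by 0.42 on average and in 5 of 6 groups, and the mean of SOD2 was -0.08, of RELB -0.01 and of NFKB1 0.0.

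The rest of the pathway was described with 6 lists of 66 genes, of which 51 were tested and 15 were below the filter. All 8 ligand genes were below it. By limma and by voom, 0 of the 51 were called in siSETD2 against siNT over the treatments, in HU, or in both drugs, each against untreated cells. Those with an unadjusted p under 0.05 numbered 9, 6 and 13 in that order, with either tool. The shares of all genes at that level by limma were 10.0%, 7.58% and 13.6%. In VE-822 alone 12 of the 51 were called, close to the 24.7% of all genes. There 3 of 14 receptors and adaptors rose and 2 fell. IL1R1, the interleukin-1 receptor, had 2.05 to 2.41 FPKM in VE-822 alone and 0.56 to 0.945 FPKM untreated (0.86, adjusted p = 0.000851). TNFRSF1A, the main TNF receptor, had 105.8 to 142.9 FPKM in VE-822 alone and 59.6 to 89.3 FPKM untreated (0.71, adjusted p = 0.00989). Of 10 kinase genes and their partners 0 rose and 1 fell, TAB2, an adaptor of TAK1 (-0.33, adjusted p = 0.0357). Of 11 ubiquitin regulators 0 rose and 1 fell, RBCK1, the LUBAC subunit HOIL-1, with 14.3 to 16.4 FPKM in VE-822 alone and 18.7 to 23.9 FPKM untreated (-0.48, adjusted p = 0.012). Of the 4 other subunits and inhibitors tested 0 were called, and RELA changed by -0.10 (adjusted p = 0.357).

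Among 12 other target genes 4 rose and 1 fell in VE-822 alone. The chemokine genes CCL2 and CXCL8 led them. CCL2 had 27.2 to 34.4 FPKM in VE-822 alone and 5.01 to 8.52 FPKM untreated (2.13, SE 0.394, adjusted p = 0.00372). CXCL8 had 45.9 to 89.7 FPKM in VE-822 alone and 7.57 to 35.2 FPKM untreated (1.83, SE 0.352, adjusted p = 0.00445). Over all 12 other libraries CCL2 reached 22.2 and CXCL8 52.8 FPKM, and IL6 had 1.98 to 2.53 FPKM in VE-822 alone and 0.362 to 4.41 FPKM in the rest. The median of this list against untreated cells was 0.51 both in HU and with the 2 drugs together, beside 0.011 and 0.024 over all genes, with 0 calls by limma. Under the block 4 of the 12 rose in HU, where 0.848% of all genes were called higher and 1.6% in either direction. With both drugs 5 rose, where 4.07% were called higher and 7.3% in either direction. For the VE-822 difference in HU minus that without HU, 5 of the 51 pathway genes were called, or 9.8%, close to the 9.91% of all genes. It was below 0 for CCL2 (-2.25, adjusted p = 0.0298), CXCL8 (-1.89, adjusted p = 0.037) and IL1R1 (-0.72, adjusted p = 0.0255), and above 0 for IRAK1, a kinase downstream of IL1R1, at 0.66 (adjusted p = 0.0209). It was also above 0 for BCL2L1, an anti-apoptotic target gene named after its values were seen, at 0.66 (adjusted p = 0.0277).

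The 5 genes most like the set, by their mean Pearson correlation with the 10 genes in log2(FPKM + 1) over the 16 libraries, were AC016876.1 (0.73), TRIM47 (0.704), CD83 (0.701), IRF1 (0.698) and TUSC1 (0.692). The libraries share the split into VE-822 alone, R1 and R2, so these values describe this set of libraries and carry no test. None of the 5 stood apart in VE-822 alone. CD83, a surface protein of activated immune cells, had 13.9 to 21.9 FPKM there and 9.06 to 21.6 FPKM in the other 12 libraries. IRF1, an interferon regulatory factor, had 2.33 to 3.05 FPKM in VE-822 alone and 1.18 to 4.16 FPKM elsewhere.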

How the data were processed

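The authors deposited 1 table of FPKM values for 58735 Ensembl genes in 16 libraries. The submitters' processing notes name hg38, STAR 2.6.1d, DESeq2 1.26.0, featureCounts 1.5.0-p3 and FastQC. Tool settings, strand use and annotation: not given in the sources used here. All identifiers occur in GENCODE release 29. Merged exon lengths gave whole fragments, within 0.01, for 100% of values, so depth was known (22310806 to 31101932 fragments) and voom could be run on them as an alternative. The depth by which the deposited values were scaled was 0.9396 to 1.0741 times the fragment total of the library. Another alternative therefore rescaled the values to library totals.

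Values were tested as log2(FPKM + 1) with limma 3.58.1 (limma-trend, R 4.3.3), 1 mean per group and 8 residual degrees of freedom, for genes averaging 1 FPKM or more. P-values are two-sided, with Benjamini-Hochberg adjustment over 13088 genes in each comparison and a threshold of 0.05. The script was tested on simulated data.

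The difference between R2 and R1 was compared between groups across genes. Without the VE-822-alone groups its correlation was 0.363 to 0.746 (15 pairs), and pairs holding 1 such group gave -0.052 to 0.295 (12 pairs). Both VE-822-alone groups correlated with each other at 0.395 (1 pair), a difference that the block in the other 6 groups does not model. The pairing comes from these values, since the labels name no shared culture. The replicate block therefore covers those 6 groups (7 residual degrees of freedom). This block and one over all 8 groups were both listed as alternatives, with earlier results of these data known.

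The 10 genes, the 6 pathway lists and the naming rule were chosen with earlier results of these data known. The rule named the 10 genes, SETD2, RELA, at most 2 called genes per list and comparison, and the 5 genes of highest mean correlation with the set. Of the pathway genes, IL6 and BCL2L1 were named outside this rule.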

Additional observations from a re-analysis of the deposited data

Results flagged for a closer look

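For BIRC3 the VE-822 difference in HU minus that without HU was -1.73 on the log2 scale (SE 0.296, adjusted p = 0.0072), and it stayed between -1.93 and -1.52 without any 1 library. For SOD2 it was -1.20 (SE 0.194, adjusted p = 0.0055), between -1.37 and -1.02 without any 1 library. Both stand here because the effect of the same drug differed between 2 conditions by a test of the difference itself. The comparison was chosen after the data were seen, and the VE-822-alone libraries that it rests on stood apart from the other 12.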

How the results depend on the processing

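The number of members called moved with the replicate block. With the block in 6 groups it became 4 for siSETD2 against siNT, 2 for HU, 7 for HU with VE-822 against untreated, 1 for HU with VE-822 against HU, and 6 for the VE-822 effect in HU minus that without HU. The block over 8 groups gave 1, 4 and 5 for HU, HU with VE-822 against untreated and that difference. Calls over all genes moved as well. For siSETD2 against siNT they went from 17 to 147 with the block over 8 groups and to 508 with that in 6. The shares of all genes under the block in 6 groups stand above with each comparison. For the other counts of members in this section no such share is given. Those counts therefore describe the settings and not the set. For VE-822 the count of members was 4 with no filter on low values. It was 8 by voom, which added BCL3 (adjusted p = 0.0428). For HU with VE-822 against untreated it was 2 after scaling to library totals and 0 without the VE-822-alone libraries. For the VE-822 effect by HU it was 4 with R2 and 6 with R1 libraries outside VE-822 alone. Leaving out 1 library gave 2 to 7 calls for VE-822, 0 to 4 for HU with VE-822 against untreated, 2 to 4 for the VE-822 effect by HU, and 0 to 0 in the other comparisons. For VE-822 the count was 2 without siSETD2 R1 or siNT R2, and 3 without siSETD2 R2 of VE-822 or untreated siNT R2. Directions turned for NFKBIZ between siRNAs (-0.02 without VE-822 alone and within R1) and in VE-822 (0.14 with untreated R1 only). They also turned in HU for NFKB2 (-0.01 within R1) and BCL3 (-0.01 within R2), and against HU for TRAF1 (0.06 within R2 with both drugs). Without 1 library, fold changes crossed 0 for NFKBIZ (-0.05 to 0.10) and BCL3 (-0.04 to 0.36) between siRNAs, BCL3 in HU (-0.35 to 0.46), NFKBIZ in VE-822 (-0.18 to 0.04), and NFKBIZ (-0.20 to 0.03) and BCL3 (-0.16 to 0.65) in HU with VE-822 against untreated. Against HU they crossed 0 for NFKB2 (-0.03 to 0.16), BCL3 (-0.18 to 0.57), TNFAIP3 (-0.20 to 0.10), BIRC3 (-0.08 to 0.33) and TRAF1 (-0.26 to 0.13). The cause was not tested. Outside the fits that leave out 1 library, 463 of the other single-gene values kept their direction and, where tested, their side of the threshold. There 38 passed only under the alternative and 13 passed only in the fit reported. Calls lost without 1 library are not in these counts. Differences within R1 or within R2 libraries are in them but carry no test, so only their direction could be compared.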
